A study of Mus musculus with 6 samples.

Results

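The actin and alpha-actinin genes were examined in the hearts of male hSRY-ON and hSRY-OFF mice. The family was taken as 10 genes, namely the striated muscle actins Acta1 and Actc1, the smooth muscle actins Acta2 and Actg2, the cytoplasmic actins Actb and Actg1, the muscle alpha-actinins Actn2 and Actn3, and the non-muscle alpha-actinins Actn1 and Actn4. A probe was included when its gene symbol in the deposited heart table equalled one of these names. This gave 21 probes of 9 genes, out of 25697 probes with 18138 symbols. No probe carried the symbol Actg1, so that gene was not analysed here.

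The hearts came from 3 hSRY-ON and 3 hSRY-OFF pups of the FVB strain (FVB/N in the methods) at postnatal day 6, with 1 Illumina MouseRef-8 BeadChip array per heart. In hSRY-ON mice a single Signalox-hSRY cassette at the H11 locus had been recombined in the early embryo by Cre protein carried over from the oocytes of Ddx4-Cre mothers, and FLAG-tagged human SRY with EGFP was then driven by the CAG promoter, which contains the chicken beta-actin promoter. The hSRY-ON pups were chosen without the Ddx4-Cre transgene itself. The methods define hSRY-OFF as the same cassette without recombination, in which CAG drives DsRed2, whereas the results of the study describe controls as littermates without the cassette, so the genotype of the control hearts is uncertain. Each heart was profiled as bulk tissue, in which fewer cells of a type and less RNA per cell cannot be told apart. Nothing in the labels ties the 3 hearts of a group to separate litters.

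Actins are globular proteins that polymerise into filaments. In the sarcomere, the contractile unit of striated muscle, actin filaments form the thin filaments on which myosin pulls, and alpha-actinin dimers cross-link those filaments at the Z-disc. In rodents, the cardiac isoform Actc1 is the main sarcomeric actin of the heart, the skeletal isoform Acta1 is expressed with it around birth, and Acta2 marks early embryonic cardiomyocytes, vascular smooth muscle and myofibroblasts. Actb and Actg1 build the cytoskeleton of nearly all cells. Actn2 is the alpha-actinin of the cardiac Z-disc, Actn3 is that of fast skeletal fibers, and Actn1 and Actn4 hold actin bundles at adhesions and in stress fibers. Serum response factor (SRF), a transcription factor with cofactors of the myocardin family, binds the CArG box found in many muscle actin promoters.

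The promoter sequences are shown because Acta1 and Acta2, of which the former fell and the latter rose, belong to the muscle actins known for their CArG boxes. Windows of 250 bases before and 50 bases after the transcription start were held for 7 of the 10 genes (RefSeq, GRCm38.p6), and the 3 others were Actb, Actg2 and Actn3. The CArG box was searched for by its full pattern, and also with 1 base of its A and T core changed to G or C. Capitals mark the box, in the orientation of the gene.
Acta1, chr8:123894829-123894858, minus strand: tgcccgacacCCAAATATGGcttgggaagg
Actc1, chr2:114052903-114052932, minus strand: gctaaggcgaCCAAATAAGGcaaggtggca
Actg1, chr11:120348566-120348595, minus strand: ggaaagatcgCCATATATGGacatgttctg
Acta2, chr19:34255438-34255467, minus strand: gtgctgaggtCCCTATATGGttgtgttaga
Acta2, chr19:34255388-34255417, minus strand: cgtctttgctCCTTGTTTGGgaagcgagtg
Acta1, Actc1 and Actg1 each held 1 full box, with their first bases at -73, -47 and -90 from the start. The full box was present in 535 of 32851 mouse promoter windows of the same length (1.63%). Acta2 held no full box but 2 with a changed base in the core, with first bases at -84 and -34. Such changed boxes, present in 8.50% of all windows, numbered 2 in Acta1 and 3 in Actc1. The windows of Actn1, Actn2 and Actn4 held neither form. The letters AACAAT, a core recognised by SRY and SOX proteins, were searched for on both strands and were in none of the 7 windows, against 10.7% of all windows. The letters CATTCC, a core of the muscle CAT element, were searched for on both strands and occurred once each in Acta1, Acta2 and Actn4, against 14.7% of all windows. A match describes the letters and not binding.

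Depth on these arrays is signal over background. Between 12138 and 13172 probes (47.2% to 51.3%) were above background at a detection p under 0.05, and hSRY-OFF replicate 3 gave the lowest median intensity, 156 against 167 to 201 elsewhere. The 11 cardiomyocyte markers on the array were all above background. Their summed normalized intensity ranged over 232000 to 245000 for hSRY-OFF, against 213000 to 226000 for hSRY-ON. The 10 leukocyte markers on the array summed to 5670 to 8320 for hSRY-OFF, against 12600 to 13500 for hSRY-ON, with Ptprc and Cd3e above background on no array. Of the 8 tested as described below, 5 were higher at an adjusted p under 0.05 (limma), where 14.9% of all tested genes were. These were Cd14, Fcgr3, Lyz2, Cd68 and Lyz, with log2 fold changes of 1.30, 1.195, 1.025, 0.99 and 0.87. The other 3 did not pass, namely Csf1r, Emr1 and Lyzs, with log2 fold changes of 0.40, -0.21 and 0.31. Lyz, Lyz2 and Lyzs all name lysozyme, so the counts and the sum hold it more than once. Lyz and Lyz2 had the highest hSRY-ON log2 means of the tested markers, 12.80 and 12.07, so the sum rests largely on them. The values below are log2 intensities after background correction and quantile normalization, and differences were taken as hSRY-ON less hSRY-OFF, on the log2 scale, by limma (two-sided, n = 3 hearts per group).

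Acta1 fell 9.53-fold, Acta2 and Actn1 rose, Actn3 was above background in hSRY-ON hearts only, and Actc1, Actb, Actg2, Actn2 and Actn4 did not pass the test. Of the 21 probes, 20 were above background on at least 3 arrays and were tested. At a Benjamini-Hochberg adjusted p under 0.05, 7 probes of 3 genes were higher and 1 probe of 1 gene was lower in hSRY-ON, and 5 genes had no called probe. Without hSRY-ON replicate 1, 5 probes were called, since Actn3 was then not tested and the brightest Acta2 probe lost its call. Of the 7, 4 belong to Acta2, 2 to Actn3 and 1 to Actn1. The 2 Actn3 probes were above background in hSRY-ON hearts only and entered the test through that group. Of the 18 probes measured in both groups, 5 were higher and 1 was lower, the groups did not overlap in 6, and the median log2 fold change was 0.07. Over all 12970 tested probes, 3567 (27.5%) were called, 13.8% higher and 13.7% lower, and the median log2 fold change was -0.00 against 0.18 for the 20 tested family probes. The groups did not overlap in 8 of these 20 probes, against 45.2% of all probes. Without normalization between arrays 1897 probes were called, of which 38.5% were higher against 50.1% with it, and the median of all probes moved to -0.12.

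**Figure D1:**
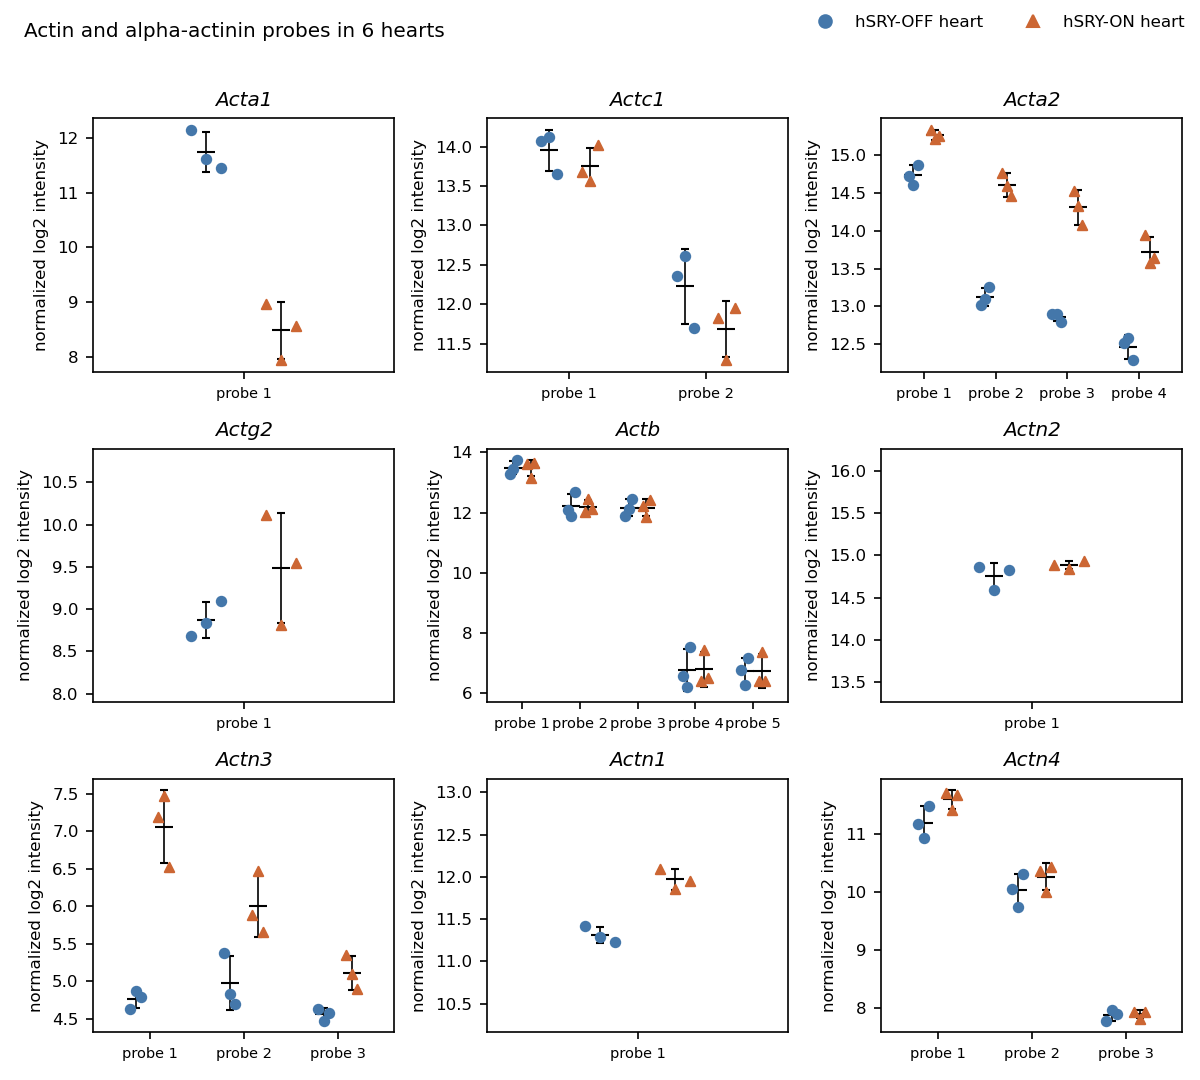
Normalized log2 intensity of each of the 21 probes in the 6 hearts, 1 panel per gene, with probes numbered from the brightest and each panel on its own scale of at least 3 log2 units. Points are hearts and black bars are the mean ± SD (n = 3). The groups are apart for Acta1, all 4 Acta2 probes, the 3 Actn3 probes and Actn1, and they overlap for Actc1, Actg2, Actb, Actn2 and Actn4.

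Acta1, the skeletal muscle actin, was measured by 1 probe (ILMN_2738825). The deposited intensities of replicates 1, 2 and 3 were 5309, 3984 and 2286 for hSRY-OFF, against 590.4, 372.4 and 481.3 for hSRY-ON. After normalization these were 12.15, 11.61 and 11.45 in hSRY-OFF and 8.96, 7.93 and 8.56 in hSRY-ON hearts. All hSRY-ON hearts were below all hSRY-OFF hearts. The mean was 11.74 ± 0.36 (SD) in hSRY-OFF and 8.48 ± 0.52 in hSRY-ON, a difference of -3.25 on the log2 scale with a standard error of 0.28 (adjusted p = 0.000389, limma), or 9.53-fold lower. The probe stayed above background on all 6 arrays.

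Since Acta1 is also the actin of skeletal fibers, markers of skeletal muscle were read beside it. Of 16 such markers on the array, 8 were above background on no array (Myod1, Myf5, Myf6, Tnnt3, Tnnc2, Myh1, Myh2 and Myh4). The summed normalized intensity of the 16 ranged over 1030 to 1240 for hSRY-OFF, against 343 to 436 for hSRY-ON. Of the 6 that were tested, 5 were lower in hSRY-ON, where 13.9% of all tested genes fell. Among the 5 were Casq1, which encodes skeletal calsequestrin, at -3.32 (standard error 0.20), and Tnni2, the fast troponin I, at -1.91 (standard error 0.18). The hSRY-ON means of Casq1, Myog and Pvalb were 5.51, 5.44 and 4.76. These were near or below the lowest above-background signals of those arrays (5.28 to 5.39), so the calls of these markers add little support. Mylpf, the fast regulatory light chain, differed by 0.38 (adjusted p = 0.0926, limma). Their part in the fall of Acta1 was not tested.

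Actc1, the cardiac actin, was not called on either of its probes. Its brighter probe (ILMN_2598916) read 14.08, 14.13 and 13.65 in the hSRY-OFF hearts and 13.68, 13.56 and 14.01 in the hSRY-ON hearts. The groups overlapped, with hSRY-OFF replicate 3 at the level of the hSRY-ON hearts. The log2 fold change was -0.20, with a 95% confidence interval of -0.62 to 0.22 (adjusted p = 0.445, limma). The other probe (ILMN_2767216) changed by -0.54, with an interval of -1.16 to 0.09 (adjusted p = 0.177, limma). Without the dim array, hSRY-OFF replicate 3, that probe was called, at -0.79 (adjusted p = 0.0404, limma).

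The ratio of Acta1 to Actc1 within each heart was therefore taken from the brightest probe of each gene. Relative to the hSRY-OFF mean, the log2 ratio of replicates 1, 2 and 3 was 0.29, -0.30 and 0.02 for hSRY-OFF, against -2.51, -3.41 and -3.24 for hSRY-ON. Its mean differed by -3.05 log2 units, and 3 hearts of 3 lay below every control. An exact permutation test over hearts gave p = 0.1, two-sided, which is the smallest that 3 against 3 allow, and 0.233 after adjustment over the 7 pairs of isoforms compared.

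Acta2, the smooth muscle actin, rose on all 4 of its probes. On the second brightest (ILMN_2923445) the log2 intensity was 13.02, 13.10 and 13.25 in hSRY-OFF and 14.77, 14.59 and 14.46 in hSRY-ON hearts. Its log2 fold change was 1.48 (standard error 0.13, adjusted p = 0.000429, limma), or 2.79-fold. The probes ILMN_2710354 and ILMN_2710353 gave 1.45 (standard error 0.14) and 1.26 (standard error 0.15), with adjusted p of 0.000645 and 0.00118 (limma). On these 3 probes the hSRY-ON hearts were all above the hSRY-OFF hearts.

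The brightest Acta2 probe (ILMN_2693895) showed a smaller change. It read 14.73, 14.61 and 14.88 in hSRY-OFF and 15.34, 15.21 and 15.25 in hSRY-ON hearts, without overlap. The log2 fold change was 0.53 (standard error 0.12, adjusted p = 0.0165, limma), or 1.44-fold. Its deposited intensity was 62.0% to 65.5% of the array's highest intensity for hSRY-OFF, against 81.3% to 89.0% for hSRY-ON, while the second brightest probe lay at 18.3% to 22.9% and 44.0% to 56.8%, respectively. The part of this closeness to the top of the scale was not tested. The call on the brightest probe was lost without normalization between arrays (0.39), with scaling to the median of detected probes (0.49), and without hSRY-OFF replicate 1 (0.55) or hSRY-ON replicate 1 (0.48).

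Other smooth muscle genes did not all move with Acta2. Tagln, which encodes the actin-binding protein transgelin, rose by 1.81 (standard error 0.34), and Mylk, the myosin light chain kinase, rose by 3.33 (standard error 0.15). Smtn, encoding smoothelin, fell by 1.47 on the log2 scale and Synpo2, encoding synaptopodin 2, fell by 0.92. Myh11, the smooth muscle myosin heavy chain, differed by -0.42 (adjusted p = 0.114, limma), and Cnn1 and Lmod1 were above background on no array. In all, 2 of the 6 tested markers rose and 2 fell, where 14.9% of all tested genes rose and 13.9% fell. The summed intensity of the 8 markers on the array ranged over 17000 to 18900 for hSRY-OFF, against 19400 to 22800 for hSRY-ON. Des, encoding desmin, was the brightest of them, with log2 means of 13.40 in hSRY-OFF and 13.50 in hSRY-ON, and was not called (0.10). Mylk went from 9.33 to 12.66 and Smtn from 12.53 to 11.06, so the sum rests on few genes and does not measure smooth muscle as a whole. The 10 fibroblast and myofibroblast markers summed to 31500 to 33800 and 28800 to 32100, with Tcf21 called higher at 0.76 (adjusted p = 0.0143, limma), 6 others not called, among them Col1a1 at 0.05 (adjusted p = 0.794, limma), Postn above background on no hSRY-OFF and 1 hSRY-ON array, and Cthrc1 on none. The 7 pericyte markers summed to 5800 to 6980 and 4240 to 5400, and 3 of them fell, namely Abcc9 by 0.74, Higd1b by 0.74 and Notch3 by 0.49 on the log2 scale. The 4 others were not called, with Rgs5 at -0.57 (adjusted p = 0.131, limma), Pdgfrb at -0.43, Cspg4 at 0.47 and Kcnj8 at 0.66. Their part in the rise of Acta2 was not tested.

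Actg2, the actin of visceral smooth muscle, was measured by 1 probe (ILMN_2839313). Its log2 intensity was 8.68, 8.83 and 9.10 in hSRY-OFF and 10.11, 8.81 and 9.54 in hSRY-ON hearts. The groups overlapped because hSRY-ON replicate 2 lay among the controls. The log2 fold change of 0.62 had an interval of -0.09 to 1.33 (adjusted p = 0.173, limma), and without that heart it was 0.96 (adjusted p = 0.0244, limma).

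Actb, the cytoplasmic beta-actin, was measured by 5 probes. The brightest (ILMN_2698799) read 13.30, 13.44 and 13.74 in hSRY-OFF and 13.62, 13.16 and 13.63 in hSRY-ON hearts. The groups overlapped, and the log2 fold change of -0.02 had an interval of -0.44 to 0.40 (adjusted p = 0.947, limma). The 5 probes gave changes between -0.04 and 0.01, with adjusted p of 0.922 to 0.999 (limma). With all hearts kept, the signs of probes 3, 4 and 5 turned with the processing, and those of probes 1 and 2 stayed negative. The widest interval was that of the dim probe ILMN_2846865, from -0.90 to 0.92. Other transcripts that are commonly used as references with Actb were read beside it. Of 11 tested, Tfrc, the transferrin receptor, was called, at -1.42 (standard error 0.28, adjusted p = 0.00833, limma), and 10 were not called. Gapdh, a glycolytic enzyme, changed by -0.13 and Ppia, a cyclophilin, by 0.05.

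**Figure D2:**
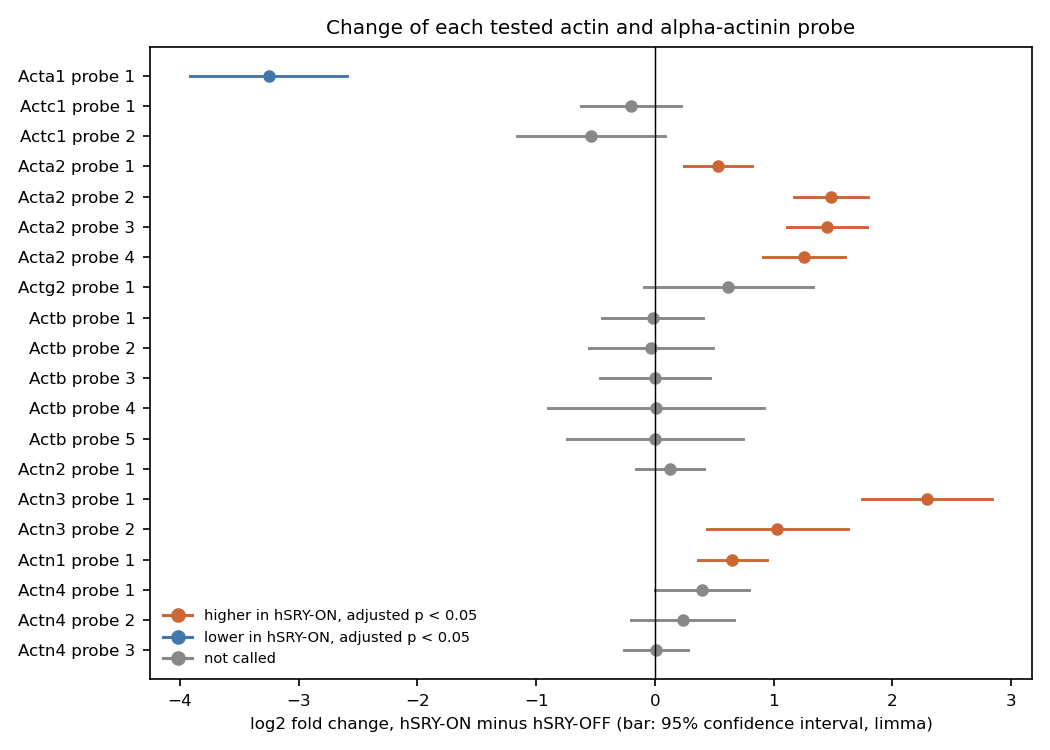
Log2 fold change (hSRY-ON minus hSRY-OFF) of the 20 tested actin and alpha-actinin probes, with bars for the 95% confidence interval from limma and colours for the adjusted p. Acta1 is the only probe called lower, at -3.25, and the intervals of the Actb, Actc1 and Actn2 probes include 0.

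Among the alpha-actinins, Actn1 rose, Actn3 was above background in hSRY-ON hearts only, and the cardiac isoform Actn2 was not called. Actn2 (ILMN_2797061) read 14.86, 14.59 and 14.82 in hSRY-OFF and 14.89, 14.84 and 14.93 in hSRY-ON hearts. The groups overlapped, and the log2 fold change of 0.13 had an interval of -0.16 to 0.42 (adjusted p = 0.475, limma). Its deposited intensity was 59.8% to 68.7% of the array's highest.

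Actn3, the alpha-actinin of fast skeletal fibers, was measured by 3 probes. On the brightest (ILMN_2747543) the log2 intensity was 4.64, 4.87 and 4.79 in hSRY-OFF, where it was not above background on any array, and 7.19, 7.47 and 6.52 in hSRY-ON, where it was above background on all 3. The 2 brighter Actn3 probes passed the filter through the hSRY-ON hearts only and their control values are background readings, so their p-values add no support of their own. The fitted log2 fold change of the brightest was 2.29 (adjusted p = 0.000716, limma). Its level was at least 3.10-fold higher on the corrected intensities, a bound that was not itself tested. The bound is the hSRY-ON mean over the mean of, for each control array, the higher of its lowest above-background signal and the probe's own. The probe ILMN_3008110 was above background on the same 3 arrays and was at least 1.49-fold higher by the same untested bound. Its fitted log2 fold change was 1.03 (adjusted p = 0.0212, limma), a call lost without hSRY-OFF replicate 2 or 3. The probe ILMN_2708303 was above background on no array and was not tested, so its values of 4.47 to 4.63 and 4.90 to 5.35 have no fold. Without background correction the log2 fold changes were 0.82 and 0.32 in place of 2.29 and 1.03, and the probes kept their calls. The skeletal muscle markers given beside Acta1 had a lower sum in hSRY-ON hearts, opposite to Actn3.

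Actn1, the alpha-actinin of adhesions and stress fibers, was measured by 1 probe (ILMN_2844996). It read 11.42, 11.29 and 11.24 in hSRY-OFF and 12.10, 11.86 and 11.96 in hSRY-ON hearts, all hSRY-ON hearts above all controls. The log2 fold change was 0.65 (standard error 0.12, adjusted p = 0.00745, limma), or 1.57-fold. It was 0.56 and not called without normalization between arrays.

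Actn4, the other non-muscle isoform, was measured by 3 probes, none of which was called. The brightest (ILMN_2673599) read 11.18, 10.92 and 11.48 in hSRY-OFF and 11.70, 11.41 and 11.66 in hSRY-ON hearts. These overlapped by a narrow margin, with hSRY-OFF replicate 3 above hSRY-ON replicate 2. The log2 fold change was 0.40, with an interval of 0.00 to 0.80 (adjusted p = 0.122, limma), and 0.54 without hSRY-OFF replicate 3 (adjusted p = 0.0421, limma). The other probes changed by 0.23 and 0.01. The ratio of Actn1 to Actn2 within a heart rose by 0.53 log2 units, with 3 of 3 hSRY-ON hearts above every control (exact permutation p = 0.1, adjusted 0.233). That of Actn4 to Actn2 rose by 0.27 (exact permutation p = 0.2, adjusted 0.28), and that of Actn1 to Actn4 by 0.25 (exact permutation p = 0.2, adjusted 0.28).

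Acta2 to Actc1 differed by 0.73 with the brightest probes and by 1.55 with the mean over probes (exact permutation p = 0.1 each, 0.233 after adjustment for the former), and with the brightest probes the lowest hSRY-ON heart (0.45) lay just above the highest control (0.44). Without normalization between arrays or with median scaling the difference was 0.79 with an exact permutation p of 0.2. Actb to Actc1 differed by 0.18 (exact permutation p = 0.6) and Actg2 to Acta2 by 0.09 (exact permutation p = 0.8), a difference that turned to -0.56 with the mean over probes.

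**Figure D3:**
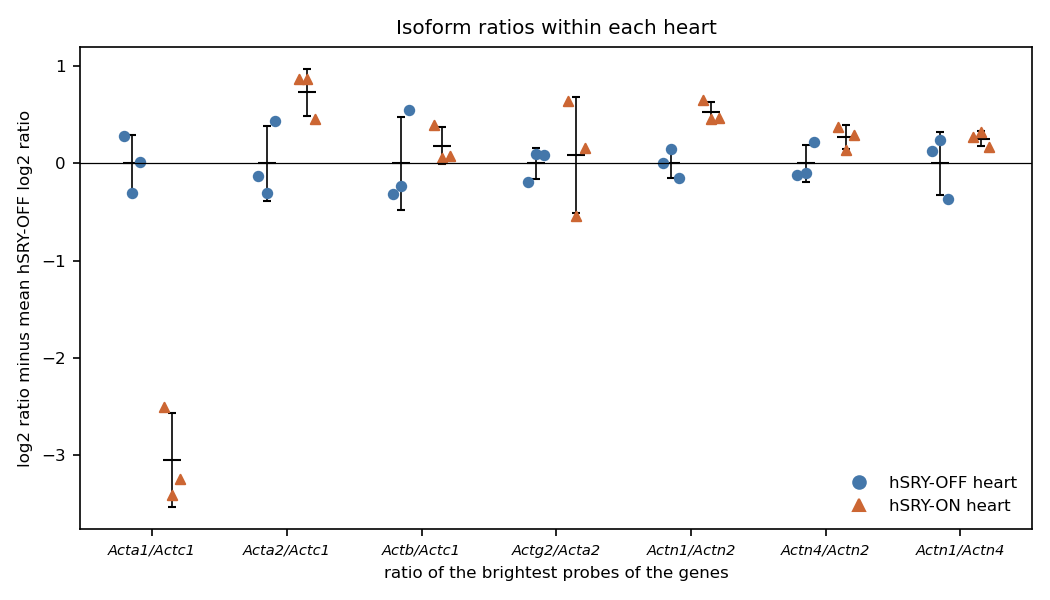
Log2 ratio of the brightest probes of paired isoforms in each heart, minus the mean of the hSRY-OFF hearts, with black bars for the mean ± SD (n = 3). The Acta1 to Actc1 ratio lies between -3.41 and -2.51 in the hSRY-ON hearts, and the other ratios stay within 1 log2 unit of their hSRY-OFF mean.

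The transcripts most like Acta1 and Acta2 over the 6 hearts were taken by Pearson correlation of the brightest probes, among 9660 tested genes. For Acta1 these were Tmem30a (named D9Wsu20e on the array), Ndufaf5 (named 2310003L22Rik) and Sirt5, at 0.999, 0.996 and 0.996. Their own log2 fold changes were -0.28, -0.96 and -1.17, smaller than that of Acta1. For the brightest Acta2 probe they were Fkbp1a, Ift52 and Sparc, at 0.997, 0.996 and 0.996, with changes of 0.48, 0.32 and 0.30. The 6 points share the division into groups, so these values describe the pattern only.

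Genes that build or trim actin filaments were read next. In a list of polymerisation and turnover genes with 37 tested, 6 rose and 1 fell (median log2 fold change 0.16), where 14.9% of all 9660 tested genes rose and 13.9% fell (median 0.00). Twf2, which encodes the actin monomer-binding and capping protein twinfilin 2, fell from 11.37 to 9.29, a change of -2.08 (standard error 0.13, adjusted p = 8.25e-05, limma). Wasf1, an activator of the Arp2/3 complex that nucleates branched filaments, rose by 1.11, and the severing protein gene Gsn (gelsolin) rose by 1.002. Diap1, a formin that elongates straight filaments, rose by 0.55. The Arp2/3 subunit genes tested ranged from -0.75 to 0.38, and 1 of 7, Arpc5, was called. This list depended on single hearts, with 2 called genes without hSRY-OFF replicate 1, 3 without hSRY-OFF replicate 2 or hSRY-ON replicate 1, and 4 without hSRY-ON replicate 2.

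The genes in a list of sarcomeric thin filament ends and assembly, which also holds chaperones such as Unc45b, were lower or not called. Of 9 tested, 3 fell and 0 rose by limma (median -0.38), where 13.9% of all tested genes fell and 14.9% rose. At an unadjusted p under 0.05 the numbers were 4 lower and 0 higher, where 5228 of all 12970 probes passed in either direction. Tmod4, a tropomodulin that caps the pointed end of thin filaments in skeletal muscle, fell by 1.41 on the log2 scale. Unc45b, a myosin chaperone, fell by 0.74 (adjusted p = 0.0492, limma), and Nrap, an actin-binding protein of myofibril assembly, fell by 0.70. Tmod1, the cardiac tropomodulin, differed by -0.38 (adjusted p = 0.125, limma).

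The partners of alpha-actinin were divided. Of 26 tested genes of the Z-disc and of adhesions, 5 rose and 7 fell (median 0.17), where 14.9% of all tested genes rose and 13.9% fell. The sarcomeric members Tcap, which encodes the titin cap telethonin, and Ldb3, which encodes the Z-disc protein ZASP that binds alpha-actinin 2, changed by -3.10 and -1.34 on the log2 scale. Fhl2, a LIM protein of the sarcomere, fell by 2.98, and Itga7, a laminin-binding integrin of muscle, fell by 2.86. Pdlim4, a PDZ and LIM protein that binds alpha-actinin, rose from 10.43 to 13.39, a change of 2.95 (standard error 0.13, adjusted p = 2.74e-05, limma). Pdlim3 rose by 1.04 and Zyx, encoding the adhesion protein zyxin, by 0.80. The remaining called genes were Ilk at 0.63, Pdlim2 at 0.50, Synpo2 at -0.92, Pdlim5 at -0.88 and Mypn at -0.79. Vcl, encoding vinculin, differed by 0.20 (adjusted p = 0.436, limma), and Myoz2, a cardiac calsarcin, by 0.11 (adjusted p = 0.608, limma).

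**Figure D4:**
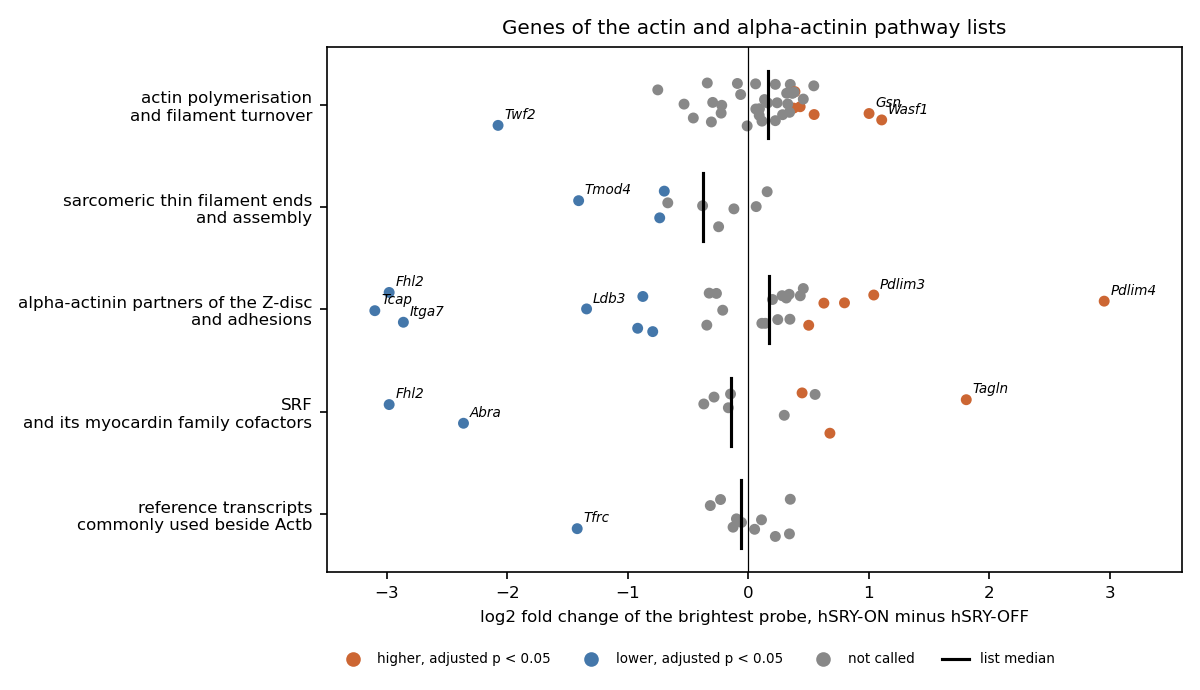
Log2 fold change of the brightest probe of each tested gene in 5 lists around actin and alpha-actinin, with black bars for the list medians and names for genes that changed by more than 1 log2 unit. Pdlim4 lies at 2.95 and Tcap at -3.10, and the medians of the lists lie between -0.38 and 0.17. Fhl2 and Vasp stand in more than 1 list.

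Srf itself, Myocd, Mkl1 and Mkl2 were either not called or not tested. Srf differed by -0.15 (adjusted p = 0.528, limma) on its brighter probe and by -0.48 (adjusted p = 0.0955) on the other, and Myocd, encoding myocardin, by 0.30 (adjusted p = 0.295, limma). Mkl1 and Mkl2, which encode the myocardin-related cofactors, were above background on at most 1 array of a group and were not tested. In a wider list that adds their partners and targets, 11 genes were tested, of which 3 rose and 2 fell (median -0.15). Over all tested genes, 14.9% rose and 13.9% fell. Abra, encoding the muscle protein STARS that binds actin and promotes SRF activity, fell by 2.37 on the log2 scale. Nkx2-5 and Gata6, transcription factors of cardiomyocytes, rose by 0.68 and 0.45, and Gata4 differed by -0.37 (adjusted p = 0.256, limma). Of the 11 cardiomyocyte markers, Nkx2-5 was the only 1 called higher, and 5 were called lower. These were Pln at -1.47, Tnni3 at -1.13, Ryr2 at -1.09, Mybpc3 at -0.51 and Myh6 at -0.51, each on its brightest probe. The dimmer Myh6 probe (ILMN_2640008) changed more, by -1.97 (standard error 0.25, adjusted p = 0.00154, limma).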

How the data were processed

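Total RNA of 3 hSRY-ON and 3 hSRY-OFF hearts was hybridized as biotin-labelled cRNA. Deposited by the authors were raw bead intensities, averaged by probe and not normalized, with detection p-values computed against negative controls. The bead software is not given in the sources used here. No pair of arrays held identical values. The methods name TCC without settings, and the submitters' processing notes name limma. Sample labels gave the group and replicate number.

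Intensities were processed in R 4.3.3 with limma 3.58.1, by neqc (normexp background correction with controls inferred from the detection p-values, an offset of 16, quantile normalization and log2). Probes with a detection p under 0.05 on at least 3 of the 6 arrays were fitted with lmFit and eBayes, group being the only term, and Benjamini-Hochberg adjusted over all 12970. A gene stood for its brightest probe in ratios and lists. Ratios were compared by exact permutation over hearts. Named genes were all members, the called genes of largest change in each list, fixed regulators and markers, and the 3 genes most correlated with Acta1 and Acta2. Other non-member genes given with values were chosen after these were seen. Members and lists were chosen with earlier results of these data known. Alternatives were an offset of 50 or no background correction, median scaling or no normalization, a filter at detection p under 0.01, on all 6 arrays or left out, an intensity trend, the replicate number as a block, each heart left out, and the mean over probes. Precision is limited by the 6 arrays, and p-values measure only the spread between these hearts, which may be technical. On simulated data with 12852 tested probes, 40.2% of planted 2-fold and 82.1% of planted 4-fold changes were called. Only 192 of these probes held a planted change, whereas 27.5% of the real probes were called, so these shares need not hold for the real data. Figures were drawn with matplotlib 3.10.9. Sequences were from RefSeq (GRCm38.p6).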

Additional observations from a re-analysis of the deposited data

How the results depend on the processing

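Acta1 and the 3 dimmer Acta2 probes kept their direction and call in every alternative in which they were tested. The brightest Actn3 probe did so too, but its control values were background readings, so the kept call adds no support. Its log2 fold change was 0.82 without background correction, against 2.29 with it. Neither Actn3 probe was tested with detection required on all 6 arrays, and neither was tested when any hSRY-ON heart was left out. The dimmer of them, ILMN_3008110, was also not tested at detection p under 0.01. With each heart left out, between 2206 (without hSRY-OFF replicate 1; 2255 without hSRY-ON replicate 1) and 3669 of all probes were called, and between 5 (without hSRY-ON replicate 1) and 9 (without hSRY-OFF replicate 3) of the family. Without normalization between arrays 1897 probes were called in all, with 6 of the family against 8. The numbers of called genes under that setting were 4 for filament turnover (7 before) and 3 for SRF and its cofactors (5 before). With an intensity trend, 5 genes of the thin filament list were called (3 before). Of the reference transcripts, 3 were called without background correction and 2 with an offset of 50, no filter, detection on all 6 arrays, detection p under 0.01 or a trend (1 before).

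Small uncalled changes turned sign. Without normalization these were -0.115 and -0.089 for Actb probes 3 and 4, -0.030 for Actn2 and -0.124 for Actn4 probe 3. With scaling to the median they were -0.008 and 0.003 for Actb probes 3 and 5 and -0.018 for Actn4 probe 3. Without background correction they were -0.005 and 0.006 for Actb probes 4 and 5 and -0.017 for the Actg2 to Acta2 ratio, which was -0.561 with the mean over probes. With an offset of 50, Actb probe 5 was at 0.003. With each heart left out, Actb probes 1 to 5 ranged from -0.120 to 0.139, -0.202 to 0.194, -0.132 to 0.157, -0.318 to 0.398 and -0.326 to 0.214, Actn4 probe 3 from -0.043 to 0.055, and the Actg2 to Acta2 ratio from -0.177 to 0.410. The cause was not tested. The filament turnover list ranged from 2 to 7 called genes, the thin filament list from 2 to 4.

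The replicate numbers did not pair the hearts. Same-numbered hearts had deviations that correlated at -0.02, 0.04 and -0.07 across probes. With the replicate number as a block, 2842 probes were called in all, 8 of the family and 4 filament turnover genes.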

Other observations

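The 5 Actb probes ordered the hearts in opposite ways. On ILMN_2698799 and ILMN_2617433, hSRY-ON replicate 2 was the lowest of the 6 hearts, at 13.16 and 11.85. On ILMN_1377923, ILMN_2846865 and ILMN_2588055, the same heart was among the highest, at 12.44, 7.44 and 7.37, against 12.00 to 12.10, 6.42 to 6.495 and 6.39 to 6.41 in the other hSRY-ON hearts. In the hSRY-OFF hearts, replicate 3 was the highest on all 5 probes. These differences between hearts of 1 group were larger than the differences between the group means, which stayed between -0.04 and 0.01 on the log2 scale.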
